A study of Rattus norvegicus with 21 samples.

Results

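Described here are 284 genes whose RNA level, in neonatal rat ventricular myocytes (NRVMs) exposed to phenylephrine (PE), was lower after knockdown of Klf2 and higher after its overexpression. They were chosen by their values from 30560 Ensembl gene IDs. Levels are in CPM, a gene's count scaled to the total count of its library, and ratios were taken between group means after adding 1 CPM. A gene was a member when its siKlf2-PE to siNeg-PE ratio was 1/1.5 or less and its Ad-Klf2-PE to Ad-GFP-PE ratio was 1.5 or more. Its mean also had to be at least 10 CPM in both siNeg-PE and Ad-Klf2-PE. Genes whose level with PE was at least 2 times, or at most 0.5 times, that without PE in both siNeg and Ad-GFP were left out. Because these measurements chose the members, the contrasts with PE are described without a test, and tests are given for the contrasts without PE.

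NRVMs are muscle cells taken from the ventricles of newborn rats and kept in primary culture. PE is an agonist of α1-adrenergic receptors, which act through Gq proteins, and it is widely used to induce hypertrophic growth of such cells in culture. KLF2 is a zinc finger transcription factor that binds GC-rich DNA. It is best known from endothelial cells, where laminar flow induces it and where it restrains inflammatory and clotting genes, and from T cells, where it helps to maintain quiescence. The study asked whether loss of KLF2 worsens, and its overexpression lessens, the hypertrophic response to PE.

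Knockdown was profiled in 4 groups of 2 libraries each. In siKlf2-PE, NRVMs received a small interfering RNA against Klf2 and, 12 h later, PE for 36 h, and siKlf2 cells had no PE. Their references siNeg-PE and siNeg received a negative control RNA on the same schedules. Overexpression was profiled in 4 groups of 3 libraries each. Ad-Klf2-PE cells had PE for 12 h and then an adenovirus carrying Klf2 for another 24 h, and Ad-Klf2 cells had the virus without PE. Ad-GFP-PE and Ad-GFP cells received a virus for green fluorescent protein instead. Every RNA library carries the treatment label 100 µM PE, and those called without PE here carry a time of 0 h where the others carry 36 h. No source used here gives the sequence of the interfering RNA, the promoter of the viruses or whether replicates are separate preparations of cells. The p-values therefore cover only how much these libraries vary, and part of that may be technical. Cultures of this kind can also hold other heart cells. The counts come from whole cultures, so a change in the share of a cell type and a change in RNA per cell cannot be told apart. Gene IDs were not paired with symbols, so neither the level of Klf2 nor markers of myocytes were examined, and "Klf2 knockdown" and "overexpression" are used as the labels give them.

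Knockdown libraries totalled 181101876 to 224082309 counts, and overexpression libraries 32693762 to 76138723. Every member was tested in both tables. The lowest count of any member was 711 in a knockdown library and 73 in an overexpression library, so counting error is small for nearly all members. In the knockdown table, the log CPM of replicates had correlations across genes of 0.995 to 0.9957. In the overexpression table the 3 Ad-GFP libraries correlated less well (0.9593 to 0.9651) than those of the other groups (0.9821 to 0.9915). The median coefficient of variation of a member was 6.4% in Ad-Klf2 and 8.88% in Ad-GFP, and with PE it was 3.02% in Ad-Klf2-PE and 5.82% in Ad-GFP-PE. In Ad-GFP 24 members differed by more than 1.5 times between libraries, against 1 to 7 members in every other group. With any single library of Ad-Klf2 or Ad-GFP left out, 170 to 182 members were called higher in Ad-Klf2, against 176 with all of them. Of all genes tested, 18.5% to 22.2% were then called higher, against 20% with all libraries.

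Of 8079 genes at 10 CPM or more in siNeg-PE and Ad-Klf2-PE, 945 met the knockdown criterion of the rule (11.7%) and 1751 met the overexpression criterion (21.7%). Both criteria were met by 292 genes (3.61%), which is 30.9% of the genes that met the knockdown criterion and 16.7% of those that met the overexpression criterion. Of these, 8 were left out for their PE response in both controls, 7 with a lower and 1 with a higher level under PE, and 284 remained. Genes that met only the knockdown criterion numbered 653, and 1459 met only the overexpression criterion. These counts come from the choosing values and say nothing further about the members.

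Together the members made up 0.804% and 0.792% of all counts in the siKlf2-PE libraries, against 1.45% and 1.42% in siNeg-PE. In Ad-Klf2-PE they made up 4.68%, 4.64% and 4.71%, against 1.43%, 1.41% and 1.41% in Ad-GFP-PE. The controls of the separate tables thus gave the members nearly the same share, knockdown lowered that share and overexpression raised it, as the rule requires. Without PE the share was 0.989% and 0.989% in siKlf2 and 1.57% and 1.63% in siNeg. It was 2.34%, 2.35% and 2.43% in Ad-Klf2 and 1.62%, 1.61% and 1.59% in Ad-GFP. In neither pair of groups without PE did the libraries overlap. A few genes did not carry the sum, since the 10 members of highest level held 28.1% of it in siKlf2-PE, 28.9% in siNeg-PE, 27.0% in Ad-Klf2-PE and 29.9% in Ad-GFP-PE.

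**Figure D1:**
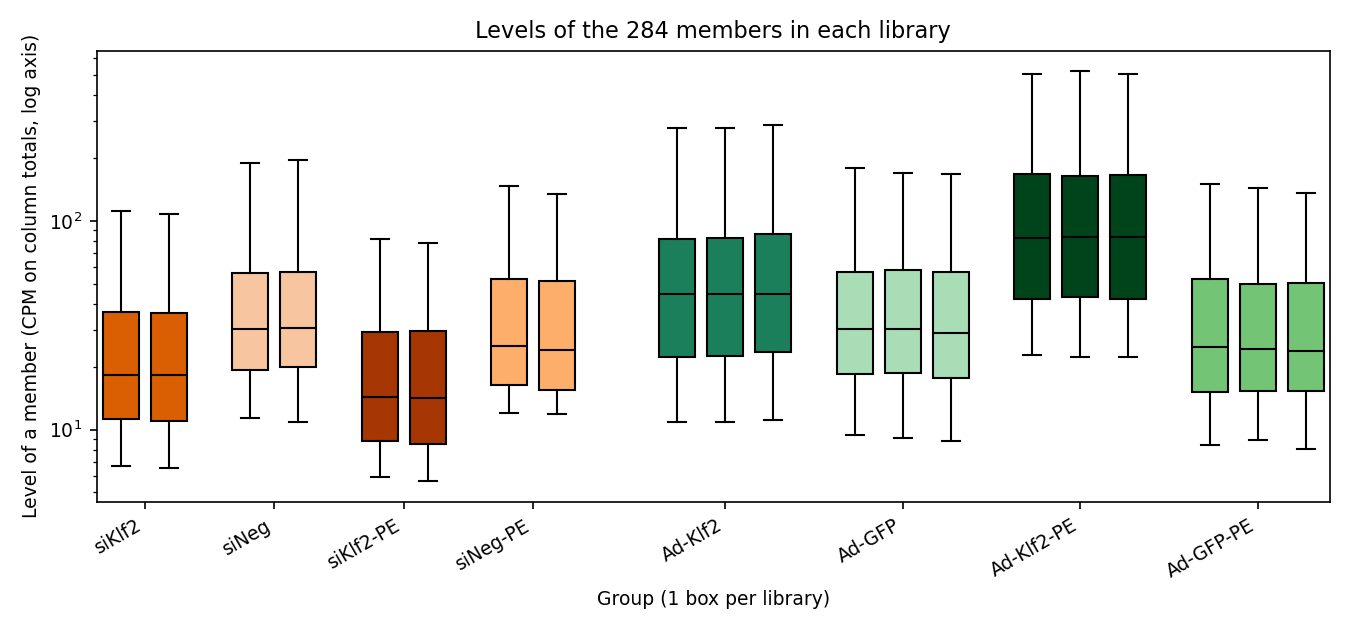
Level of the 284 members in each library, in CPM of column totals on a log axis. Each box covers the members from the lower to the upper quartile with the median as a line, whiskers run from the 5th to the 95th percentile, and the 2 or 3 boxes of a group are its libraries. Medians are 14.1 to 14.3 CPM in siKlf2-PE and 83.0 to 83.9 CPM in Ad-Klf2-PE, and replicate boxes nearly coincide.

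The median member was at 14.3 and 14.1 CPM in the siKlf2-PE libraries and at 25.3 and 24.0 CPM in siNeg-PE. It stood at 83.0, 83.9 and 83.6 CPM in Ad-Klf2-PE and at 24.9, 24.5 and 23.9 CPM in Ad-GFP-PE. These groups chose the members, so the distances between them follow in part from the choice. CPM is not corrected for gene length, so levels are compared between groups and not between genes. In the ratios used by the rule, the median member was at -0.74 on the log2 scale in siKlf2-PE over siNeg-PE, with quartiles of -0.89 and -0.64 and a largest fall of -3.21. In 49 members that ratio was a fall of at least 2-fold, which 175 of the 8079 genes had (2.17%), and in 2 it was at least 4-fold, which 4 of the 8079 had (0.0495%). For Ad-Klf2-PE over Ad-GFP-PE the median was 1.38, with quartiles of 0.92 and 2.05 and a maximum of 6.49. At least 2-fold was reached by 197 members, at least 4-fold by 78 and at least 8-fold by 25. Of the 8079 genes, 1046 reached 2-fold (12.9%), 325 reached 4-fold (4.02%) and 79 reached 8-fold (0.978%).

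Most members were within a factor of 2 on the knockdown side, where 235 of the 284 had a fall of less than 2-fold. The 3 members nearest to the rule's threshold of 1/1.5 had siKlf2-PE to siNeg-PE ratios of 0.6667, 0.6666 and 0.6664. The nearest genes that failed on that threshold alone had 0.6668, 0.6681 and 0.6688. On the overexpression side the nearest ratios were 1.503, 1.503 and 1.508 inside and 1.49, 1.49 and 1.488 outside. The lowest siNeg-PE means were 10.09, 10.11 and 10.3 CPM inside and the highest outside were 9.997, 9.987 and 9.978 CPM. For Ad-Klf2-PE the lowest means inside were 13.91, 14.64 and 14.84 CPM, and the only genes outside had 6.678 and 2.239 CPM.

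How many genes met the rule depended on how libraries were scaled. On column totals the median of all tested genes was itself shifted in the knockdown table, to a log2 fold change of -0.31 in siKlf2-PE over siNeg-PE and -0.22 in siKlf2 over siNeg. With TMM factors, which scale libraries on the assumption that most genes do not change, those medians were -0.04 and -0.02. In the overexpression table the shift was smaller, at -0.13 on totals and -0.03 with TMM for Ad-Klf2-PE over Ad-GFP-PE. Applied to TMM-scaled totals, the rule gave 105 genes, of which 96 were among the 284, so 188 members met it on column totals only. In the TMM-scaled fit the median member was at -0.52 in siKlf2-PE over siNeg-PE and at 1.51 in Ad-Klf2-PE over Ad-GFP-PE. Every member lay on its own side of 0 in both contrasts of that fit, which the 1.5-fold limits of the rule and shifts of this size largely fix. Fold changes from here on are log2 values of that fit unless column totals are named.

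Without PE, nearly all members were lower after Klf2 knockdown. In libraries of which siKlf2 entered no step of the rule, and siNeg only the step on PE response, 264 of the 284 members fell in siKlf2 relative to siNeg (93.0%; edgeR's quasi-likelihood test, Benjamini-Hochberg adjusted p under 0.05). Among all 18173 genes tested, 26.8% fell, and among the 8079 genes at 10 CPM or more 26.5% did. Only 5 members rose (1.76%), against 27.2% of all genes and 45.9% of those at 10 CPM or more. The median member had a log2 fold change of -0.48, with quartiles of -0.72 and -0.30 and a range of -1.86 to 0.69, where the median of all genes was -0.02. The fall was thus modest for most: 101 members fell by at least 1.5-fold (background 11.5%), and 1 rose by as much (background 5.83%).

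The libraries showed the same without a model. On TMM-scaled CPM both siKlf2 libraries lay below both siNeg libraries for 271 members, which was so for 40.2% of all genes, and above them for 7, against 37.8%. In CPM of column totals the median member was at 18.3 and 18.3 CPM in the siKlf2 libraries and at 30.3 and 30.6 CPM in siNeg. Scaling by column totals turned the calls over all genes to 8166 lower and 2288 higher, against 4868 and 4934 with TMM. Members were then called lower in 275 cases and higher in 1, and their median of -0.68 still lay below the -0.22 of all genes. The number that rose was 3 when either siKlf2 replicate 2 or siNeg replicate 1 was left out.

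This high share was not confined to genes that also met the overexpression criterion. Of the 653 genes that met only the knockdown criterion, 598 fell in siKlf2 without PE (91.6%), with a median of -0.47. By contrast, 368 of the 1459 genes that met only the overexpression criterion fell (25.2%), close to the background, and 625 rose (42.8%). The members' fall without PE was therefore of the size seen in genes chosen by the knockdown criterion alone. Of the 96 members that met the rule on both scalings, 93 fell and 0 rose in siKlf2, and their median was -0.78. Among the 188 that met it on column totals only, 171 fell and 5 rose, and the median was -0.43.

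Without PE, a smaller majority of the members was higher after Klf2 overexpression. Of the 284, 176 rose in Ad-Klf2 relative to Ad-GFP (62.0%) and 20 fell (7.04%), by the same edgeR test in the other table. Of all 16153 genes tested there, 20% rose and 15.1% fell, and of genes at 10 CPM or more 25.4% rose and 20.2% fell. Ad-Klf2 entered no step of the rule, and Ad-GFP entered only the step on PE response. The median member was at 0.38, with quartiles of 0.07 and 0.73 and a range of -0.98 to 4.36, against 0.00 for all genes. At least 1.5-fold was reached by 102 rises (background 10.7%) and by 3 falls (background 5.06%).

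In single libraries, on TMM-scaled CPM, all 3 Ad-Klf2 libraries lay above all 3 Ad-GFP libraries for 183 members, which held for 23.3% of all genes. They lay below for 27 members, against 19.2% of all genes. In column-total CPM the median member was at 44.5, 44.4 and 44.8 CPM in Ad-Klf2 and at 30.4, 30.4 and 29.0 CPM in Ad-GFP. The genes again divided by the table that chose them. Of those that met only the overexpression criterion, 872 of 1459 rose (59.8%), with a median of 0.30. Of those that met only the knockdown criterion, 109 of 653 rose (16.7%) and 200 fell, with a median of -0.07. Members that met the rule on both scalings rose in 59 of 96 cases and fell in 5, and those that met it on column totals only rose in 117 of 188 and fell in 15. The number of members that fell was 13 when Ad-Klf2 replicate 3 was left out, where 11% of all genes fell.

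**Figure D2:**
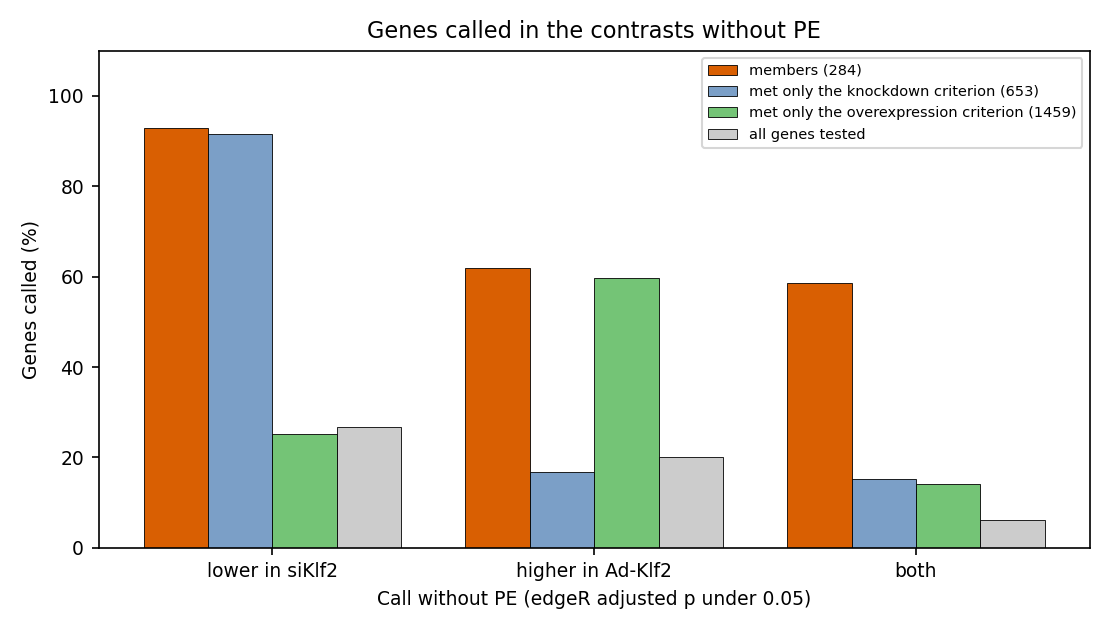
Percentage of genes called without PE as lower in siKlf2 than in siNeg, as higher in Ad-Klf2 than in Ad-GFP, and as both (edgeR adjusted p under 0.05). Bars stand for the 284 members, the 653 genes that met only the knockdown criterion of the rule, the 1459 that met only the overexpression criterion, and all genes tested. The members' 93.0% stands beside 91.6% for the knockdown criterion alone, their 62.0% beside 59.8% for the overexpression criterion alone, and 58.5% of them had both calls.

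Both calls together, lower in siKlf2 and higher in Ad-Klf2 without PE, were made for 166 members (58.5%). Of 15944 genes tested in both tables, 6.15% had both, and of those at 10 CPM or more 7.45% did. Among genes that met only 1 of the criteria the share was 15.3% for knockdown and 14.1% for overexpression. A joint share depends on the single shares, which were 93.0% and 62.0% for the members. They were 91.6% and 16.7% for the knockdown criterion alone, and 25.2% and 59.8% for the overexpression criterion alone. Whether the calls went together beyond these single shares was not tested. With at least 1.5-fold in each contrast 42 members had both calls, against 1.97% of all genes. A further 78 members fell in siKlf2 and were not called in Ad-Klf2, 7 rose in Ad-Klf2 and were not called in siKlf2, and 8 were called in neither. The 5 that rose in siKlf2 comprised 3 that also rose in Ad-Klf2 and 2 not called there. These classes of 78, 7, 8 and 5 members were not counted over all genes. Their sizes can therefore not be taken as particular to the members.

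Levels by class were as follows. The 166 members called in both had a median of 61.7 CPM in Ad-Klf2 and 32.9 CPM in Ad-GFP, and of 19.2 CPM in siKlf2 and 32.7 CPM in siNeg. The 78 called only in siKlf2 had medians of 22.1 CPM in Ad-Klf2 and 22.9 CPM in Ad-GFP, and of 14.1 CPM in siKlf2 and 23.7 CPM in siNeg. A class of 20 members moved the same way in both tables without PE, falling in siKlf2 (median -0.51) and also in Ad-Klf2 (median -0.32, range -0.98 to -0.16). With PE the median of these 20 was 1.31 in Ad-Klf2-PE over Ad-GFP-PE, as the rule requires. Their direction under overexpression was thus opposite with and without PE, which the rule and their call without PE together fix. Their median level was 75.6 CPM in Ad-Klf2-PE and 36.0 CPM in Ad-GFP-PE, and 32.6 CPM in Ad-Klf2 and 41.5 CPM in Ad-GFP. A fall in Ad-Klf2 without PE was called for 7.04% of the members. It was called for 83 of the 1459 genes that met only the overexpression criterion (5.69%) and for 15.1% of all genes tested. Falls in both tables were not counted over all genes, so the class of 20 cannot be taken as particular to the members.

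**Figure D3:**
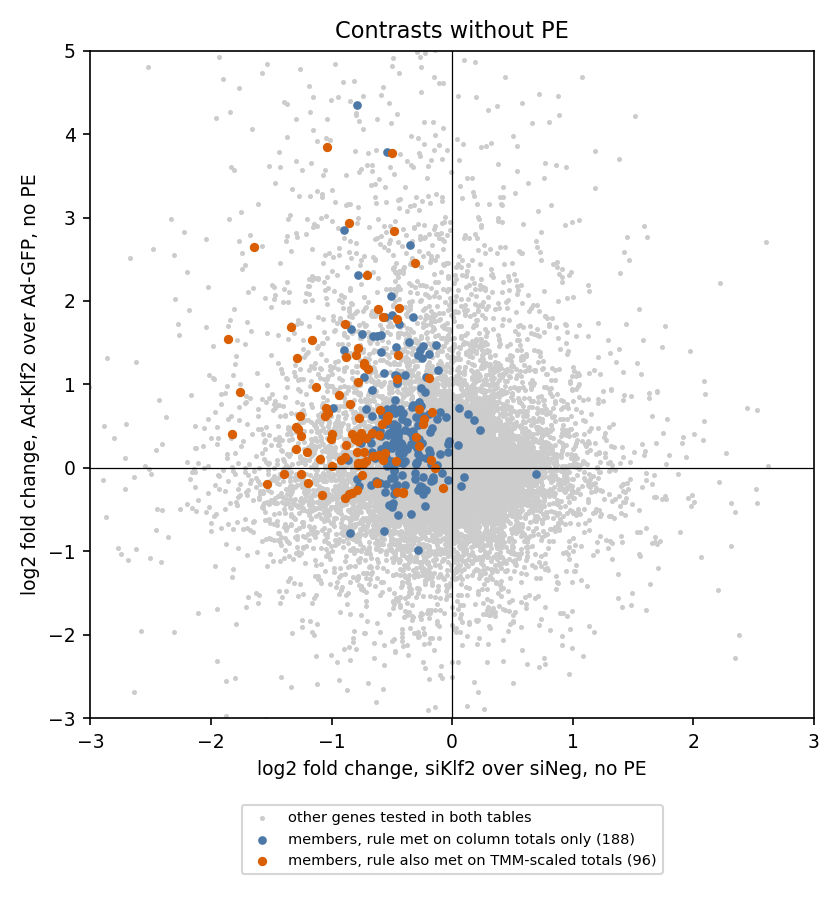
Log2 fold change of each gene without PE, siKlf2 over siNeg on the x axis and Ad-Klf2 over Ad-GFP on the y axis. Orange points are the 96 members that met the rule on both scalings, blue points the other 188 members, and grey points 15660 other genes tested in both tables, of which 236 lie outside the axes. Most members lie left of 0, and their heights run from -0.98 to 4.36.

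The size of the ratio that chose a member was compared with its calls without PE. Of all genes tested, 20% rose in Ad-Klf2 and 26.8% fell in siKlf2 without PE. Calls of other genes in the same fold classes were not counted, so an order here cannot be taken as particular to the members. Of the 25 members with at least an 8-fold ratio in Ad-Klf2-PE over Ad-GFP-PE, 24 rose in Ad-Klf2 without PE, with a median of 1.58. Between 4-fold and 8-fold 44 of 53 rose (median 0.61), between 2-fold and 4-fold 72 of 119 (median 0.38), and below 2-fold 36 of 87 (median 0.18). None of the 78 members at 4-fold or more fell in Ad-Klf2, so all 20 that fell came from the smaller ratios. Knockdown calls showed no such order: 25 of 25, 47 of 53, 110 of 119 and 82 of 87 members fell in siKlf2, from the highest to the lowest of these classes. Split by the knockdown ratio instead, 48 of the 49 members that fell by at least 2-fold with PE also fell without it (median -0.89), and 216 of the other 235 did (median -0.45).

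Across the members the fold changes of the separate tables were nearly unrelated. Spearman's rho between siKlf2 and Ad-Klf2 fold changes without PE was -0.11 over 284 members, and -0.01 over the 8079 genes at 10 CPM or more. Within a table the contrasts with and without PE gave 0.65 for siKlf2 and 0.51 for Ad-Klf2. Over the 8079 genes these were 0.845 and 0.517. Members are not independent replicates, the points of 1 table share its libraries, and the choice of members cuts the range of the values with PE, so these are descriptions only. Levels in the controls of the separate tables, siNeg and Ad-GFP, had a rho of 0.91 over the members and 0.96 over the 8079 genes.

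PE by itself changed the members little in 3 of the 4 arms. The median log2 fold change of PE over no PE was -0.12 in siKlf2, -0.08 in siNeg and -0.11 in Ad-GFP, where all genes had medians of about -0.02. In Ad-Klf2 it was 1.03, with quartiles of 0.65 and 1.56, and 275 of the 284 members were above 0, 147 of them by at least 2-fold. All genes had a median of -0.01 in that arm, with 49.4% above 0 and 17.6% by at least 2-fold. These values share libraries with the rule, which asked for a high Ad-Klf2-PE level and left out strong PE responders of both controls, and they are given with no test. Genes that met only the overexpression criterion had a median of 0.99 in that arm, and genes that met only the knockdown criterion one of -0.20.

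**Figure D4:**
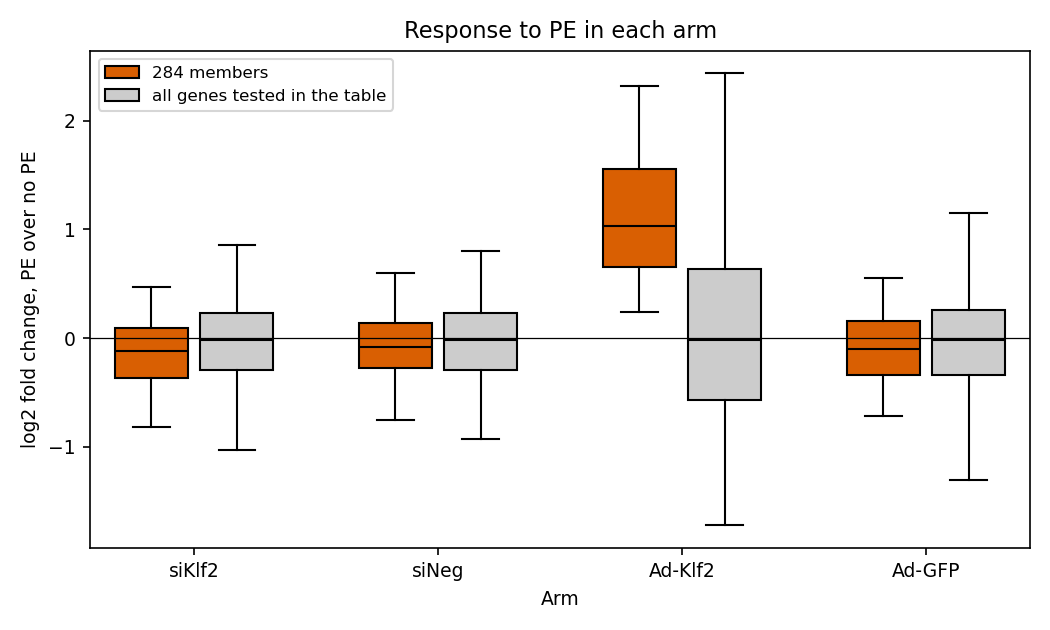
Log2 fold change of PE over no PE in each arm for the 284 members (orange) and all genes tested in the table (grey). Boxes span the quartiles with the median as a line, and whiskers run from the 5th to the 95th percentile. The members' medians are -0.12 in siKlf2, -0.08 in siNeg, 1.03 in Ad-Klf2 and -0.11 in Ad-GFP.

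The rise in Ad-Klf2 was larger with PE than without for 273 members, by a median of 1.11 on the log2 scale. The fall in siKlf2 was larger with PE for 177 members, with a median difference of -0.06. The ratios with PE chose the members and those without PE did not, so a larger change with PE is in part built in. Genes that met only the overexpression criterion likewise had a median of 1.22 in Ad-Klf2-PE over Ad-GFP-PE and of 0.30 in Ad-Klf2 over Ad-GFP. The rise with PE in Ad-Klf2 was of similar size whatever the sign of the PE response in the controls. It had a median of 0.95 in the 141 members that were lower with PE in both siNeg and Ad-GFP, of 1.08 in the 77 that were higher in both, and of 1.17 in the 66 with opposite signs. On column totals, 271 members had their highest level of the overexpression table in Ad-Klf2-PE, 11 in Ad-Klf2 and 2 in Ad-GFP. The rule set Ad-Klf2-PE above Ad-GFP-PE in every member, so these counts are in part built in. The same was not counted over all genes. In the knockdown table, also on column totals, 232 had their lowest level in siKlf2-PE and 52 in siKlf2, while 204 were highest in siNeg and 80 in siNeg-PE. The rule set siKlf2-PE below siNeg-PE in every member, so these counts too are in part built in. They also depend on the scaling. In the TMM-scaled fit, PE over no PE was below 0 for 173 members and above 0 for 111 in siNeg. In siKlf2 it was below 0 for 189 members and above 0 for 95.

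Values in every library are given for 4 members, chosen as those with the largest fall in siKlf2 and the largest rise in Ad-Klf2 without PE. The contrast that chose an ID is in part built in, and the contrast of the other table is not. ENSRNOG00000026679 had the largest fall in siKlf2. It stood at 50.5 and 51.7 CPM in siKlf2 and at 205.7 and 219.8 CPM in siNeg, which is -1.86 on the log2 scale (SE 0.066, edgeR adjusted p = 2.19e-09). In the other table it had 270.5, 270.5 and 254.1 CPM in Ad-Klf2 and 93.7, 91.8 and 94.1 CPM in Ad-GFP, which is a rise of 1.55 on the log2 scale (SE 0.053, edgeR adjusted p = 8.32e-14) that ranked 29 among the members. Neither pair of groups overlapped. With PE it had 7.08 and 6.82 CPM in siKlf2-PE and 67.6 and 77.9 CPM in siNeg-PE. It had 92.5, 95.3 and 91.7 CPM in Ad-Klf2-PE and 44.7, 48.9 and 46.3 CPM in Ad-GFP-PE. This member was lower with PE in all 4 arms, Ad-Klf2 included, and so went against the usual direction of the members in that arm.

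ENSRNOG00000008079 had the second fall by size. Its levels were 31.3 and 29.4 CPM in siKlf2 and 122.1 and 124.1 CPM in siNeg (log2 fold change -1.82, SE 0.052, edgeR adjusted p = 4.82e-10). With PE they were nearly the same, at 33.1 and 31.9 CPM in siKlf2-PE and 114.5 and 99.0 CPM in siNeg-PE. The response to overexpression was smaller, with 120.1, 128 and 133.1 CPM in Ad-Klf2 and 92.3, 97.5 and 106.5 CPM in Ad-GFP. That rise of 0.40 (SE 0.064, edgeR adjusted p = 6.01e-05) ranked 135 among the members. The groups did not overlap, but they lay closer together than those of the knockdown. In Ad-Klf2-PE the gene reached 156, 170 and 149.1 CPM, against 82.5, 89.9 and 87.2 CPM in Ad-GFP-PE.

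ENSRNOG00000003031 had the largest rise in Ad-Klf2. It stood at 368.5, 394.9 and 359.5 CPM in Ad-Klf2 and at 21.8, 17.8 and 16.8 CPM in Ad-GFP (log2 fold change 4.36, SE 0.079, edgeR adjusted p = 2.85e-17). In Ad-Klf2-PE it reached 697.3, 708.5 and 704.9 CPM, against 19.0, 19.4 and 19.4 CPM in Ad-GFP-PE. Its controls thus stayed near 20 CPM with or without PE while both overexpression groups were far above them. In the knockdown table it had 10.9 and 11.4 CPM in siKlf2 and 21.6 and 22.6 CPM in siNeg, a fall of -0.79 (SE 0.052, edgeR adjusted p = 2.34e-07) that ranked 51. With PE the levels were 11.3 and 10.6 CPM in siKlf2-PE and 18.7 and 18.0 CPM in siNeg-PE. It met the rule on column totals and not on TMM-scaled totals.

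ENSRNOG00000022268 had the second rise by size. It stood at 47.8, 47.1 and 51.9 CPM in Ad-Klf2 and at 1.36, 4.94 and 4.11 CPM in Ad-GFP (log2 fold change 3.84, SE 0.241, edgeR adjusted p = 3.27e-10). The low Ad-GFP value is replicate 1, with 73 counts, and the fold change ranged from 3.49 to 4.23 when single libraries were left out. With PE it had 76.4, 71.5 and 79.7 CPM in Ad-Klf2-PE and 10.1, 10.7 and 8.74 CPM in Ad-GFP-PE. Knockdown gave 4.78 and 4.46 CPM in siKlf2 and 10.9 and 10.8 CPM in siNeg, a fall of -1.03 (SE 0.068, edgeR adjusted p = 2.32e-07) that ranked 23. In siKlf2-PE it had 5.9 and 5.55 CPM and in siNeg-PE 22.4 and 19.6 CPM. Unlike the other 3, this member was higher with PE in each of the 4 arms.

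**Figure D5:**
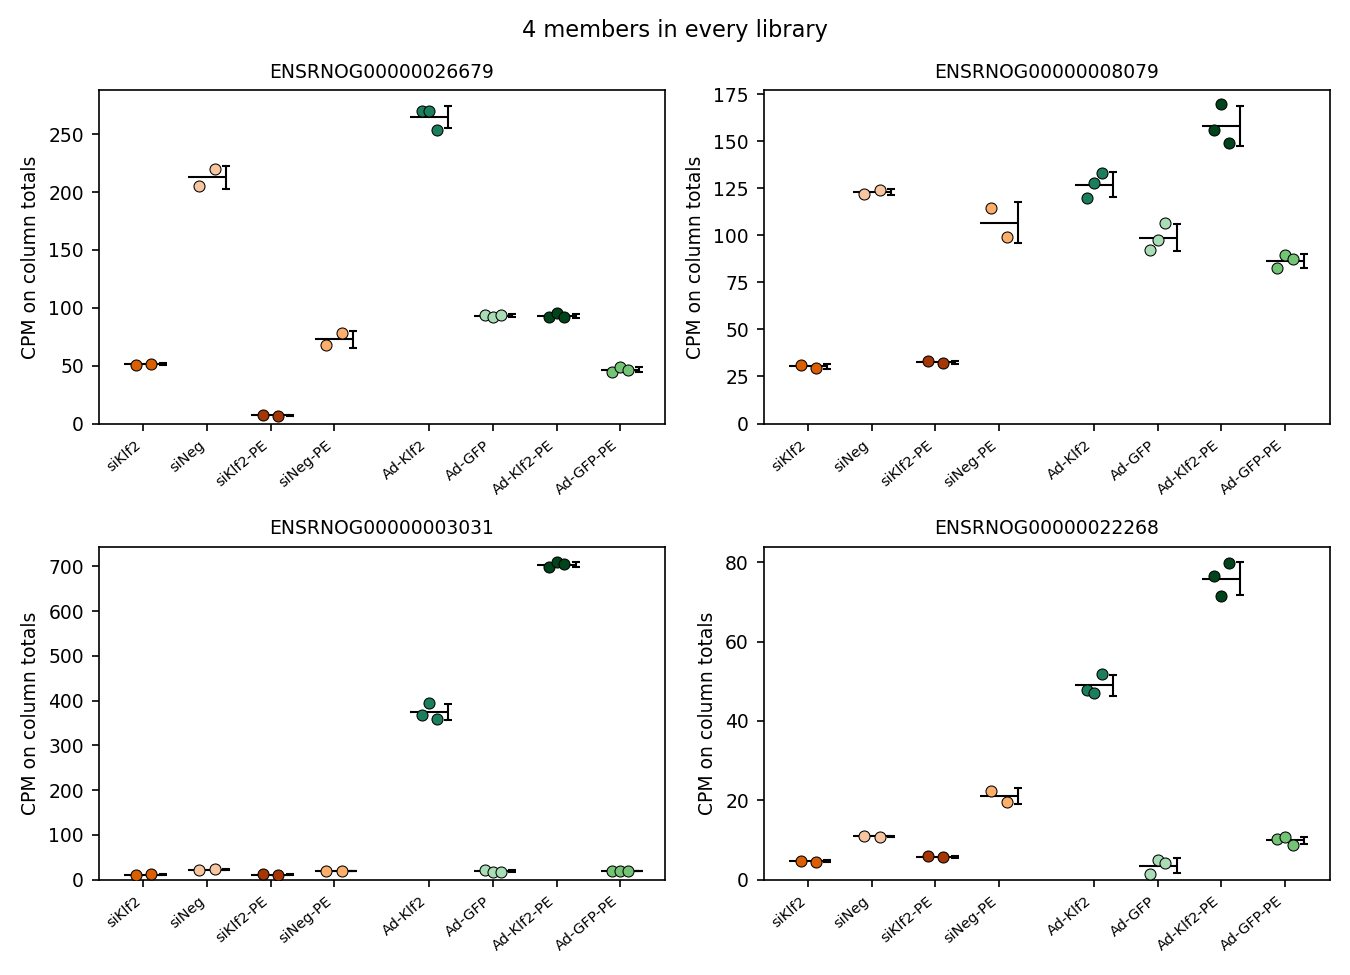
Level of 4 members in every library, in CPM of column totals, with 1 point per library, the group mean as a line and its SD as the bar beside it (n = 2 in the knockdown groups, n = 3 in the overexpression groups). In each panel siKlf2 lies below siNeg and Ad-Klf2 above Ad-GFP, with and without PE. The largest level is the 708.5 CPM of ENSRNOG00000003031 in an Ad-Klf2-PE library, and the y axes differ between panels.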

How the data were processed

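Per the submitters' processing notes, Trim Galore, STAR and featureCounts were run for trimming, alignment and counting, on build mRatBN7.2, without stated versions; the labels' protocols give 400 ng of total RNA per library. The authors deposited raw counts per Ensembl gene ID. Of counts of 1 to 20, 59.8% to 66.6% were even in knockdown libraries and 72.1% to 82.2% in overexpression libraries, so a count may not be 1 independent fragment.

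Members were found on CPM of column totals (Python 3.11.15). Each table was fitted with edgeR 4.0.16 in R 4.3.3 after filterByExpr (minimum count 10, total 15), leaving 18173 and 16153 genes, with TMM factors, 1 coefficient per group, and two-sided p-values adjusted by Benjamini-Hochberg over all genes of a contrast. The procedure was tested on simulated data. Few genes changed there, as many up as down, so a shift of the median gene as on column totals was not covered. Members and lists were chosen with earlier results of these data known. The 4 IDs had the largest called fall in siKlf2 or rise in Ad-Klf2 without PE, 2 for each, since 0 IDs matched a symbol in the reference; for that reason gene lists, promoters, sequences and the deposited CUT&Tag peaks were not analysed here. Libraries of the same replicate number showed no sign of pairing across groups (their deviations correlated at -0.0432 to 0.0403 and -0.0203 to 0.0446). Alternatives were other scalings, filters, DESeq2 1.42.0, limma 3.58.1, other settings of the rule and leaving out each library. Added after the data were seen were halved counts, the members that meet the rule on TMM-scaled totals, and all alternatives of the count called in both contrasts.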

Additional observations from a re-analysis of the deposited data

How the results depend on the processing

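The 4 followed IDs kept their direction and their calls in both contrasts under every alternative run for them. Scaling by library totals changed the sign of some single members, since 8 were above 0 in siKlf2 over siNeg with TMM factors and 2 on totals. The number of genes meeting the rule was 105 on TMM-scaled totals (96 of them members) and 34 with a fold of 2, and it was 315 with 0.1 CPM added in place of 1, 371 with a minimum of 5 CPM, 292 with no step on PE response and 263 to 307 when single libraries with PE were left out. With a fold of at least 1.5 added to the test, 101 members fell and 1 rose in siKlf2 without PE, against 11.5% and 5.83% of all genes. In Ad-Klf2 102 rose and 3 fell, against 10.7% and 5.06%, and 42 had both calls, against 1.97%. By adjusted p alone, among the 96 members that meet the rule on TMM-scaled totals, a list made smaller by its construction, 93 fell and 0 rose in siKlf2, 59 rose and 5 fell in Ad-Klf2, and 59 had both calls. On library totals 1 member rose in siKlf2, against 12.6% of all genes, and the cause was not tested. With single Ad-Klf2 or Ad-GFP libraries left out, 18.5% to 22.2% of all genes rose in Ad-Klf2 and 10.3% to 13.4% fell. Leaving out single libraries gave 250 to 260 falls and 3 to 4 rises in siKlf2, 170 to 182 rises and 13 to 21 falls in Ad-Klf2, and 158 to 172 with both calls; a group left with 1 library was taken to vary like the others.

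With the replicate number as a block, 264 members fell and 5 rose in siKlf2, against 26.5% and 27.1% of all genes. In Ad-Klf2 177 rose and 20 fell, against 19.8% and 14.6%, and 167 had both calls. The block thus changed little. A shared number is all that is known here to link the samples. Alternatives for CUT&Tag peaks were not run, as gene positions of that build were not used here. Depth limited few members, the lowest count being 73, but 2 or 3 libraries per group limit the error estimate, and the Ad-GFP libraries varied most.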
